A study of Homo sapiens
Mus musculus and Mus musculus and Homo sapiens with 3 samples.

Results

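The enzymes and partner proteins that write, copy or remove repressive marks on histones and DNA were followed from dividing progenitors to neurons in human and mouse motor neuron cultures. The 10 genes were taken by name from the gene entries of every count table. They were EZH2, EZH1, EED, SUZ12 and JARID2 of Polycomb repressive complex 2 (PRC2) and DNMT1, UHRF1, DNMT3A, DNMT3B and TET1 of the DNA methylation machinery. Of the 10, 9 were listed in all 4 count tables, among 15472 gene symbols that all 4 tables shared. UHRF1 was not among the entries of human replicate 1, so its human values come from 1 library.

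PRC2 places methyl groups on lysine 27 of histone H3, a mark (H3K27me3) of silenced developmental genes. Its catalytic subunit is either EZH2, which prevails in dividing cells, or EZH1, which is known from resting and differentiated cells, while EED and SUZ12 are needed for activity. JARID2 is an accessory subunit that helps to bring the complex to its targets. DNMT1 copies cytosine methylation onto newly replicated DNA and is guided there by UHRF1, whereas DNMT3A and DNMT3B set methylation on unmethylated DNA. TET1 oxidises methylcytosine, a first step in its removal.

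The study grew human and mouse pluripotent cells into motor neurons in embryoid bodies, aggregates in suspension, and profiled single cells with 10x Genomics 3' chemistry. Before differentiation the cells of both species had received a lentivirus with a CAGGS promoter driving GFP and a short barcode, and GFP-positive cells were sorted after digestion with papain and DNase I. Human replicate 1 was the iPS line NCRM1 and human replicate 2 was RUES1, labelled as human iPS. Mouse replicates 1 and 2 were C57BL/6 ES cells, and human replicate 1 and mouse replicate 1 were the parts of 1 mixed library. Cells had been sampled every 48 h in human and every 24 h in mouse, but no table gives the day of a cell. Each human replicate is 1 line, and the labels do not say whether the mouse libraries came from separate cultures. For comparisons of cell classes, p-values thus rest only on how far class differences varied between these library parts, with 1 estimate of this spread shared by both species. For comparisons of species they rest only on the spread between these parts.

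The tables held 2407 and 2044 human cells and 1881 and 2783 mouse cells, with medians of 11137 and 15766 UMIs per human cell and 19122 and 28792 UMIs per mouse cell. A UMI marks 1 captured transcript. After filtering, cells were placed in 4 classes by UMIs read at an even depth of 7000 per cell. SOX2-positive progenitors, without NEUROG2 and with fewer than 3 STMN2 UMIs, were split into TOP2A/MKI67-positive cells (any UMI of these mitotic genes) and TOP2A/MKI67-negative cells (none). NEUROG2-positive cells had at least 1 UMI of this neurogenic transcription factor, and STMN2-positive neurons had at least 3 UMIs of STMN2 and none of SOX2 or NEUROG2. In this order the classes held 349, 338, 653 and 194 cells in human replicate 1 and 282, 251, 488 and 231 cells in human replicate 2. They held 449, 274, 461 and 126 cells in mouse replicate 1 and 669, 203, 498 and 335 cells in mouse replicate 2.

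Marker lists were summed in each class. They include the gate genes SOX2, NEUROG2 and STMN2, so their match to the class names was in part fixed by the gates. Neuron markers summed to between 6251 and 12250 CPM (UMIs rescaled to an equal total in every sum) in neurons and to at most 424 CPM in both progenitor classes, and motor neuron markers to between 628 and 1235 CPM in neurons. Progenitor markers were still at 808 to 2732 CPM in neurons. Absence of TOP2A and MKI67 did not mark cells outside the cell cycle: genes of S phase, the stage of DNA replication, summed to between 2213 and 2762 CPM in TOP2A/MKI67-positive progenitors, against 1402 to 2662 CPM in negative ones. Off-target markers were highest in human replicate 2, where 9 of 9 mesenchyme and neural crest markers were detected in TOP2A/MKI67-negative progenitors at a summed 378 CPM, led by COL1A2 and TWIST1, while PRRX1 stayed at or under 1.0 CPM. In its TOP2A/MKI67-positive progenitors the list summed to 468 CPM. The same list summed to 37.4 CPM or less in TOP2A/MKI67-negative progenitors of the other 3 parts. Epithelial markers summed to 314 CPM in that class of human replicate 2 and 157 CPM in that of mouse replicate 2. TDGF1 was at 0 everywhere and NANOG and POU5F1 reached at most 0.7 CPM. DPPA4, another gene of pluripotent cells, was at 53.4 to 70.0 CPM in the human progenitors and NEUROG2-positive cells and at 15.3 to 15.8 CPM in human neurons.

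**Figure D1:**
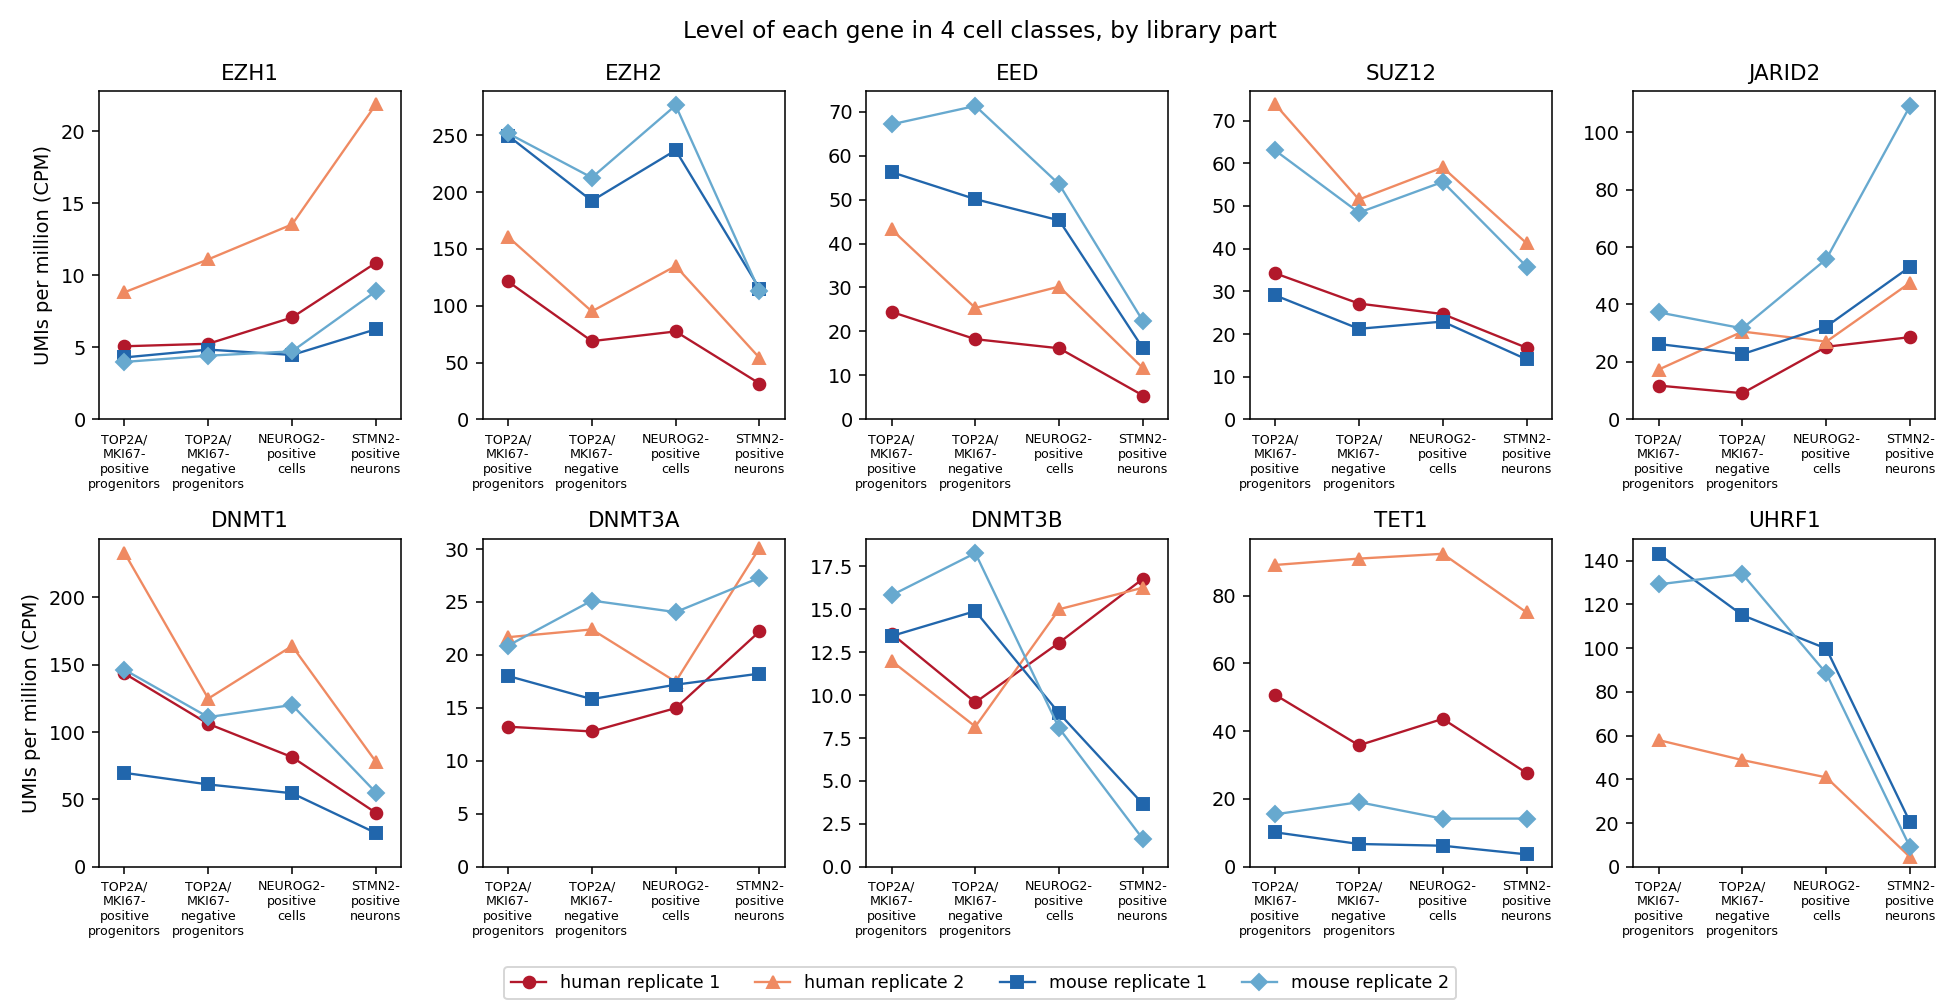
Level of each of the 10 genes (vertical axes, CPM, from 0) in the 4 cell classes (horizontal axes), with 1 point per library part joined by a line. EZH2, EED, DNMT1 and UHRF1 were lowest in neurons of every part measured, JARID2 was highest in neurons of every part, and DNMT3B in neurons was above the TOP2A/MKI67-negative progenitors in both human parts and below them in both mouse parts.

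The sharpest contrast was between STMN2-positive neurons and TOP2A/MKI67-negative progenitors. In both species the core of PRC2 and the maintenance methyltransferase DNMT1 were lower in neurons, and JARID2 was higher. Where progenitors with UMIs of DNA replication genes were set aside, as described below, only EED among these genes kept its call in both species. DNMT3B was higher in human neurons and lower in mouse neurons. In human neurons 7 of the 9 genes tested passed the threshold, 3 higher (EZH1, JARID2, DNMT3B) and 4 lower (EZH2, EED, SUZ12, DNMT1). Of all 11780 genes tested 45.5% passed, 20.8% higher and 24.7% lower. In mouse neurons 6 of 9 passed, 1 higher (JARID2) and 5 lower (EZH2, EED, SUZ12, DNMT1, DNMT3B), against 57.6% of all genes, 28.6% higher and 29.0% lower. With shares of that size over all genes, the counts of members are not a result about these genes, and their sizes and directions are given instead.

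EZH2 was the PRC2 gene with the most UMIs. It lies on chromosome 7 from 148807383 to 148884291 in human (GRCh38.p14), and Ezh2 on chromosome 6 from 47530139 to 47595341 in mouse (GRCm38). It stood at 121 and 161 CPM in TOP2A/MKI67-positive progenitors of human replicates 1 and 2, 68.9 and 95.1 CPM in negative progenitors, 77.4 and 135 CPM in NEUROG2-positive cells and 31.6 and 54.1 CPM in neurons. The mouse replicates had 249.8 and 252 CPM, 192 and 213 CPM, 237 and 276 CPM, and 115 and 113 CPM in the same order of classes. Within each species the neurons did not overlap any other class. The log2 fold change of neurons over TOP2A/MKI67-negative progenitors was -1.04 ± 0.15 (SE) in human cells and -1.04 ± 0.13 in mouse cells, and the adjusted p-values were 1.32e-04 and 2.97e-05 (edgeR quasi-likelihood test, Benjamini-Hochberg over all genes). These are falls of nearly the same size, and the difference between the species was -0.0038 ± 0.19 on the log2 scale.

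EED, the subunit that reads the mark PRC2 makes and stimulates the enzyme, fell most among the core subunits. In neurons it stood at 5.43 and 11.7 CPM in human parts and 16.2 and 22.3 CPM in mouse, against 18.2 and 25.3 CPM and 50.1 and 71.3 CPM in TOP2A/MKI67-negative progenitors. The lowest of these, in human replicate 1 neurons, rests on 11 UMIs. The log2 fold change was -1.42 ± 0.23 in human (adjusted p = 2.53e-04) and -1.82 ± 0.18 in mouse (adjusted p = 3.09e-06, edgeR). The value in neurons was 0.30 to 0.46 times that of the same library part's progenitors.

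SUZ12, the scaffold subunit, fell less. Its level was 16.8 and 41.3 CPM in human neurons and 14.1 and 35.8 CPM in mouse neurons, against 27.1 and 51.5 CPM and 21.2 and 48.4 CPM in TOP2A/MKI67-negative progenitors. Replicate 2 was higher than replicate 1 in every class of both species, so the classes overlapped across parts, while within each part neurons were lowest. The log2 fold changes were -0.55 ± 0.17 in human (adjusted p = 0.0182) and -0.66 ± 0.17 in mouse (adjusted p = 4.41e-03, edgeR). Without human replicate 1 the human value was -0.38 (adjusted p = 0.192), and without mouse replicate 2 the mouse value was -0.87 (adjusted p = 0.0598, edgeR). In human replicate 2 the table also lists SUZ12P, a pseudogene copy, with 812 UMIs beside 1525 for SUZ12, so reads of these near-identical sequences may have been divided between the entries.

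EZH1, the alternative catalytic subunit, moved the other way. It stood at 10.9 and 21.9 CPM in human neurons and 6.25 and 8.89 CPM in mouse neurons, against 5.25 and 11.1 CPM and 4.84 and 4.42 CPM in TOP2A/MKI67-negative progenitors. The human rise was 0.93 ± 0.25 on the log2 scale (adjusted p = 8.62e-03, edgeR), and with human replicate 1 or human replicate 2 left out it was 0.92 or 0.86 and no longer passed (adjusted p = 0.0844 and 0.239). The mouse value was 0.61 ± 0.27 with an adjusted p of 0.0673 (edgeR), which misses the threshold, and it rests on 12 and 72 UMIs in neurons. The mouse classes did not overlap, and the human classes overlapped by a narrow margin between replicates.

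Set against each other, the 2 catalytic subunits shifted in every library part. EZH1 made up 25.6% and 28.8% of EZH1 plus EZH2 UMIs in human neurons and 5.15% and 7.30% in mouse neurons, against 7.08% and 10.5% and 2.46% and 2.03% in TOP2A/MKI67-negative progenitors. Exact 95% Clopper-Pearson intervals ran from 16.8% to 36.1% and from 23.8% to 34.1% in human neurons and from 2.69% to 8.82% and from 5.76% to 9.11% in mouse neurons, and they cover counting error only. In TOP2A/MKI67-negative progenitors they ran from 4.54% to 10.4% and from 7.93% to 13.45% in human. In mouse ones they ran from 1.61% to 3.58% and from 1.37% to 2.91%. In mouse replicate 1 the intervals of the 2 classes overlapped, and its neuron value rests on 12 EZH1 UMIs. The share also moves with EZH2, whose fall depended on the progenitors chosen. The share was higher in neurons in 4 of 4 parts, by a mean of 11.2 percentage points (SD 8.39). An exact two-sided sign-flip permutation test gave p = 0.125, the smallest that 4 parts allow. UMIs are counted at the 3' end and are not scaled by transcript length, and the share is one of captured transcripts.

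JARID2 rose as the core subunits fell. It stood at 28.6 and 47.6 CPM in human neurons and 53.1 and 109 CPM in mouse neurons, against 9.12 and 30.6 CPM and 22.7 and 31.7 CPM in TOP2A/MKI67-negative progenitors. The log2 fold change was 0.91 ± 0.29 in human (adjusted p = 0.0217) and 1.36 ± 0.26 in mouse (adjusted p = 6.50e-04, edgeR). The human progenitors of the 2 replicates differed over 3-fold, with 9.12 CPM in replicate 1 and 30.6 CPM in replicate 2, the part with the high mesenchyme markers, and in human replicate 2 the neurons had 1.56 times the progenitor level, against 3.14 times in replicate 1. Without human replicate 1 the human value was 0.58 (adjusted p = 0.141), and without mouse replicate 2 the mouse value was 0.95 (adjusted p = 0.0883, edgeR). With off-target cells left out the human call held. NEUROG2-positive cells lay between progenitors and neurons in every part except human replicate 2, at 25.3 and 27.1 CPM in human parts and 32.3 and 55.8 CPM in mouse.

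**Figure D2:**
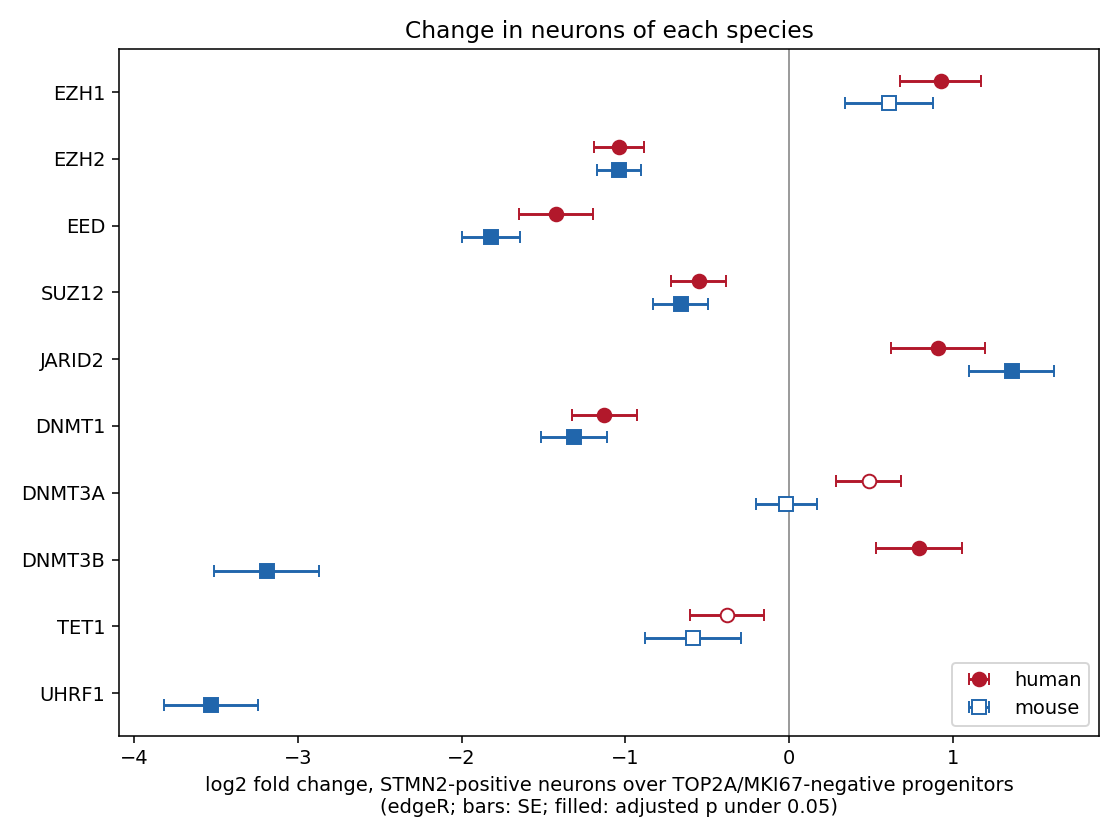
Log2 fold change (horizontal axis) of STMN2-positive neurons over TOP2A/MKI67-negative progenitors for each gene (vertical axis), human as circles above mouse as squares, with SE bars and filled symbols where the adjusted p passed 0.05. Of the genes shown for both species, DNMT3B is the one whose filled symbols lie on opposite sides of 0, at 0.79 in human and -3.19 in mouse.

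DNMT1 had the highest human level of the DNA methylation genes and fell in neurons of both species, except where progenitors with replication UMIs were set aside. It stood at 143 and 233 CPM in TOP2A/MKI67-positive progenitors of human replicates 1 and 2, 106 and 125 CPM in negative progenitors, 81.4 and 164 CPM in NEUROG2-positive cells and 40.0 and 77.9 CPM in neurons. In mouse the values were 69.7 and 146 CPM, 61.1 and 111 CPM, 54.5 and 120.1 CPM, and 25.0 and 55.1 CPM in the same order. Neurons were lowest in each of the 4 parts. The log2 fold change of neurons over TOP2A/MKI67-negative progenitors was -1.13 ± 0.20 in human (adjusted p = 5.66e-04) and -1.31 ± 0.20 in mouse (adjusted p = 1.30e-04, edgeR). With gate genes read from all UMIs of a cell the mouse value was -0.47 and did not pass (adjusted p = 0.189, edgeR). With any UMI of a replication gene counted beside TOP2A and MKI67 it was 0.69 in human and 0.37 in mouse (adjusted p = 0.0523 and 0.631, edgeR), where the median of all genes in mouse was at 0.23. With all UMIs read, SUZ12 was at -0.30 in human and -0.45 in mouse and JARID2 at 0.76 in human, and these did not pass either (adjusted p = 0.186, 0.114 and 0.0531, edgeR).

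UHRF1, the partner of DNMT1, fell further. In neurons it stood at 4.37 CPM in human replicate 2 and at 20.3 and 8.89 CPM in mouse, against 48.8 CPM and 115 and 134 CPM in TOP2A/MKI67-negative progenitors. Neurons thus had 0.0896 times the progenitor level in human replicate 2 and 0.177 and 0.0664 times in mouse. Fitted in mouse alone, over 11722 genes of which 29.2% were called lower, the log2 fold change was -3.53 ± 0.29 (adjusted p = 6.53e-05, edgeR). The human fall has no replicate and no test.

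DNMT3A, which remains expressed in mature neurons, did not pass in either species. It stood at 22.2 and 30.1 CPM in human neurons and 18.2 and 27.3 CPM in mouse neurons, against 12.8 and 22.4 CPM and 15.8 and 25.1 CPM in TOP2A/MKI67-negative progenitors. The human log2 fold change was 0.49 ± 0.20 (adjusted p = 0.0613) and the mouse one -0.02 ± 0.19 (adjusted p = 0.963, edgeR). Within parts, neurons were 1.74 and 1.34 times the progenitors in human and 1.15 and 1.09 times in mouse. The human value passed in 5 of 16 alternatives, with log2 values from 0.34 to 0.63 over all of them and adjusted p down to 0.0256 (edgeR) without cells holding off-target markers.

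DNMT3B parted the species. In human replicates 1 and 2 it stood at 13.6 and 12 CPM in TOP2A/MKI67-positive progenitors, 9.58 and 8.17 CPM in negative progenitors, 13.1 and 15.0 CPM in NEUROG2-positive cells and 16.8 and 16.3 CPM in neurons. In mouse replicates 1 and 2 it stood at 13.4 and 15.8 CPM, 14.9 and 18.3 CPM, 8.94 and 8.06 CPM, and 3.65 and 1.61 CPM in the same order. Human neurons were above every mouse neuron value, and human TOP2A/MKI67-negative progenitors were below every mouse one. The log2 fold change of neurons over TOP2A/MKI67-negative progenitors was 0.79 ± 0.26 in human (adjusted p = 0.0267) and -3.19 ± 0.32 in mouse (adjusted p = 3.99e-06, edgeR). The human rise was 0.93 without human replicate 1, 0.62 without human replicate 2 and 0.54 without cells holding off-target markers, and did not pass in these fits (adjusted p = 0.122, 0.369 and 0.117, edgeR).

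The change differed between the species by 3.98 ± 0.42 on the log2 scale (adjusted p = 1.30e-04, edgeR test of the interaction). DNMT3B was the 1 gene of the 9 for which this test passed, where 19.7% of all genes did. The counts behind the neuron values were 34 and 67 UMIs in human and 7 and 13 UMIs in mouse, so the mouse level is known with little precision. Genes of G2/M, the stage before and during division, summed to 403 and 345 CPM in human TOP2A/MKI67-negative progenitors and 953 and 1533 CPM in mouse ones, without overlap, and their part in the difference was not tested. The gene lies on chromosome 20 from 32762385 to 32809356 in human (GRCh38.p14) and Dnmt3b on chromosome 2 from 153649450 to 153687730 in mouse (GRCm38). The antisense entry Dnmt3bos held 1 UMI in each mouse part.

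A smaller difference was measured in NEUROG2-positive cells, and it depended on the progenitors chosen. In mouse NEUROG2-positive cells DNMT3B fell relative to TOP2A/MKI67-negative progenitors by 0.99 on the log2 scale (SE 0.22, adjusted p = 0.0175, edgeR), and in human cells the value was 0.62 ± 0.24 (adjusted p = 0.161, edgeR). The difference between the species was 1.62 ± 0.33 (adjusted p = 0.0382, edgeR). DNMT3B was the 1 gene of 9 that passed in mouse, against 7.53% of all genes, and the 1 of 9 whose change differed, against 0.840% of all genes. In human NEUROG2-positive cells 0 of 9 passed with edgeR, where 7.06% of all genes did. Without mouse replicate 2 the mouse fall was -0.71 (adjusted p = 0.464, edgeR), and the difference lost its call without mouse replicate 2, human replicate 1 or human replicate 2, at 1.35, 1.88 and 1.34 (adjusted p = 0.188, 0.203 and 0.669, edgeR). Leaving out human replicate 1 or 2 also took the mouse call, at -0.98 in both fits (adjusted p = 0.0754 and 0.0648, edgeR). With any or with 3 or more UMIs of replication genes counted beside TOP2A and MKI67, the mouse value was 1.14 or 1.04 (adjusted p = 0.713 and 0.248) and the difference 0.056 or -0.12, and with gate genes read from all UMIs the mouse value was 0.011 (edgeR). Under either replication choice 2 of 9 genes passed in human, 2 in mouse and 0 by difference with edgeR. The shares of all genes were then 9.03%, 2.52% and 0.0997% with any such UMI and 9.83%, 5.08% and 0.422% with 3 or more. In the human cells of the first comparison, of the 9, 2 were under 0.05 unadjusted, and DESeq2 also called 0.

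Within neurons, DNMT3B showed no common order by STMN2 level in the human replicates. Neurons with 3 to 9, 10 to 19 and 20 or more STMN2 UMIs had 14.2, 24.3 and 15.7 CPM in human replicate 1 and 9.31, 14.3 and 17.6 CPM in human replicate 2. In mouse the same groups had 3.34, 2.81 and 6.47 CPM in replicate 1 and 2.12, 3.13 and 0.813 CPM in replicate 2. Neurons with a UMI of a motor neuron marker, which were most neurons in every part, had 15.5 and 16 CPM in human parts and 4.08 and 1.43 CPM in mouse. These are descriptions of pooled UMIs, with no test.

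TET1 had higher levels in human than in mouse at every stage. It stood at 50.7 and 89.0 CPM in TOP2A/MKI67-positive progenitors of human replicates 1 and 2, 35.8 and 90.9 CPM in negative progenitors, 43.6 and 92.3 CPM in NEUROG2-positive cells and 27.6 and 75.0 CPM in neurons. In mouse the values were 10.2 and 15.4 CPM, 6.70 and 19 CPM, 6.19 and 14.2 CPM, and 3.65 and 14.2 CPM in the same order. Every human value was above every mouse value, and the lowest mouse value, in replicate 1 neurons, rests on 7 UMIs. The neuron contrast gave log2 fold changes of -0.38 ± 0.23 in human (adjusted p = 0.196) and -0.59 ± 0.29 in mouse (adjusted p = 0.104, edgeR), and neither passed.

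Several levels in TOP2A/MKI67-negative progenitors differed with the UMIs of replication genes in the cell. TOP2A/MKI67-negative progenitors were divided by their UMIs of PCNA and MCM2 to MCM7, which encode the sliding clamp and the helicase of DNA replication. Cells with 3 or more such UMIs numbered 217 and 115 in human and 198 and 170 in mouse, and made up most of the class in every part except human replicate 2. DNMT1 stood at 136 and 197 CPM in them in human and 69.0 and 117 CPM in mouse, against 35.2 and 37.4 CPM and 16.9 and 49.2 CPM in cells with none. In all 4 parts the neuron value of DNMT1 lay above that of the progenitors with none and below that of those with 3 or more.

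EZH2 and UHRF1 were also higher in the progenitors with 3 or more in all parts measured. EZH2 stood at 86.1 and 130.0 CPM in human cells with 3 or more replication UMIs and at 211 and 219 CPM in mouse ones, against 29.0 and 48.0 CPM and 127 and 172 CPM in cells with none. UHRF1 stood at 87.1 CPM in human replicate 2 and 135 and 145 CPM in mouse with 3 or more, against 5.75 CPM and 38.0 and 44.3 CPM with none. JARID2 was lower in them in all 4 parts, at 7.18 and 16.5 CPM in human parts and 19.4 and 27.3 CPM in mouse, against 12.4 and 37.4 CPM and 21.1 and 123 CPM in cells with none. DNMT3B in mouse stood at 17.5 and 19.8 CPM with 3 or more and at 8.45 and 0 CPM with none, and in human replicates 1 and 2 at 10.9 and 9.08 CPM with 3 or more and 12.4 and 2.88 CPM with none. The group with no such UMIs held 40 and 63 human cells and 16 and 12 mouse cells. Their median depth was 11404 and 15353 UMIs in human and 13406.5 and 14585.5 UMIs in mouse. The medians of all TOP2A/MKI67-negative progenitors were 12382 and 18185 UMIs in human and 17233 and 33632 UMIs in mouse. The group's UMIs totalled 482753 and 1042716 in human and 236819 and 203248 in mouse. Its low values, such as those of DNMT3B, thus rest on very few UMIs. These pooled values carry no test.

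**Figure D3:**
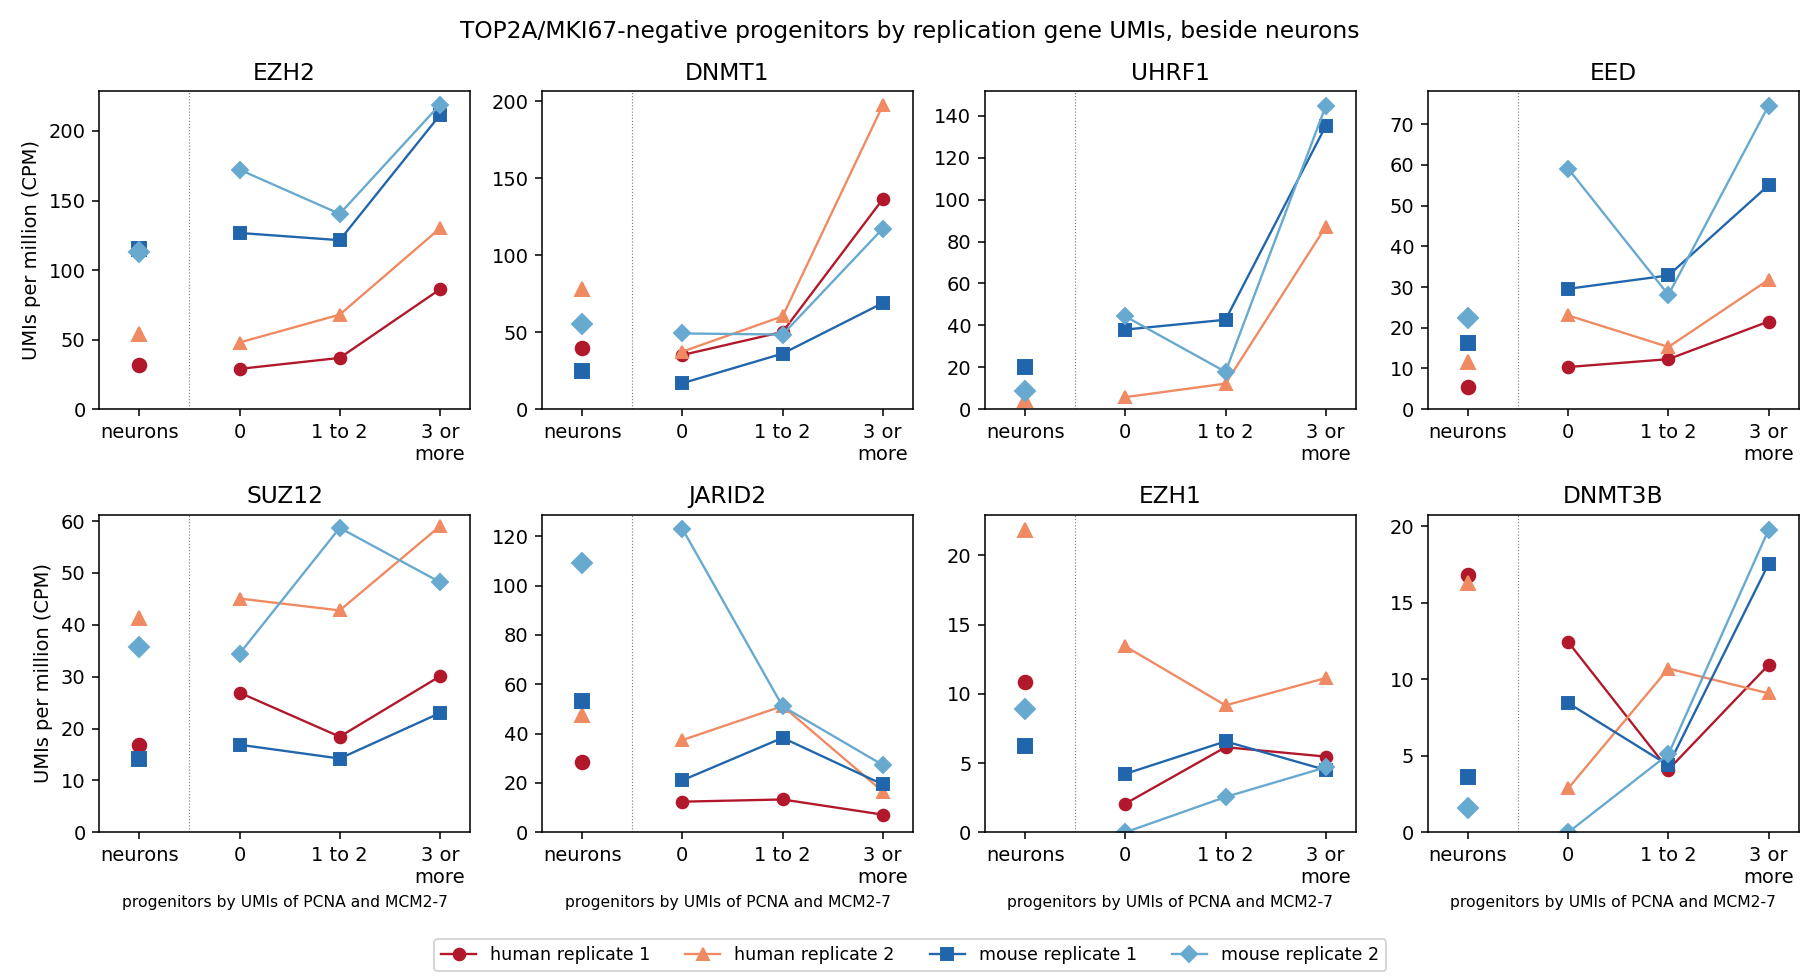
Level of 8 genes (vertical axes, CPM, from 0) in neurons, left of the dotted line, and in TOP2A/MKI67-negative progenitors grouped by their UMIs of PCNA and MCM2 to MCM7 (horizontal axes), with 1 symbol per library part. DNMT1 in human progenitors ranges from 35.2 and 37.4 CPM at no such UMIs to 136 and 197 CPM at 3 or more, and the human neurons, at 40.0 and 77.9 CPM, lie between these.

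The comparison was repeated, as an alternative chosen after seeing the data, with progenitors holding 3 or more replication UMIs moved to the TOP2A/MKI67-positive ones. In neurons 3 of 9 genes passed in human, 1 in mouse and 0 by difference, against 31.4%, 26.3% and 4.53% of all genes. With any replication UMI these were 1, 1 and 0, against 24.4%, 9.09% and 0.997% of all genes. The remaining progenitors numbered 121 and 136 in human and 76 and 33 in mouse. EED was still lower in neurons, at -0.91 ± 0.25 on the log2 scale in human (adjusted p = 0.0117) and -0.91 ± 0.22 in mouse (adjusted p = 7.20e-03, edgeR). The falls of DNMT1, EZH2 and SUZ12 no longer passed: DNMT1 was at 0.15 in human and -0.12 in mouse (adjusted p = 0.669 and 0.814), EZH2 at -0.25 and -0.30 (adjusted p = 0.254 and 0.145) and SUZ12 at -0.29 and -0.33 (adjusted p = 0.305 and 0.362, edgeR). UHRF1 stayed lower in mouse neurons, at -1.54 ± 0.31 (adjusted p = 7.87e-03, edgeR). With any replication UMI counted, UHRF1 was at -1.63 ± 0.48 there and did not pass (adjusted p = 0.0680, edgeR). At 3 or more, JARID2 no longer passed, at 0.26 in human and 0.56 in mouse (adjusted p = 0.50 and 0.144, edgeR).

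For DNMT3B this choice of progenitors changed the mouse side. In the remaining progenitors it stood at 6.85 and 7.23 CPM in human parts and at 5.22 and 3.36 CPM in mouse, the mouse values resting on 6 and 2 UMIs. The human rise in neurons was 1.08 ± 0.33 (adjusted p = 0.0225) and the mouse value was -1.17 ± 0.62 (adjusted p = 0.184, edgeR). The difference between the species was 2.25 ± 0.72 and no longer passed (adjusted p = 0.0963, edgeR). The neuron values themselves are the same under either choice.

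The split of progenitors by TOP2A and MKI67 on its own moved few of the genes. In human 1 of 9 was called, EZH2, at 0.76 ± 0.13 on the log2 scale (adjusted p = 5.37e-03, edgeR), against 3.79% of all genes. It was higher in positive progenitors of both human replicates, 1.76 and 1.69 times, and with human replicate 1 or 2 left out the log2 values were 0.78 and 0.74 (adjusted p = 0.0532 and 0.133, edgeR). In mouse 0 of 9 passed with edgeR, against 0.365% of all genes, while 2 had unadjusted p-values under 0.05 and DESeq2 also called 0. For 0 of 9 did the change differ between the species with edgeR, against 0.662% of all genes. There 2 were under 0.05 unadjusted and DESeq2 called 0.

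With progenitors of 3 or more replication UMIs moved to the positive ones, 5 of 9 passed in each species, against 11.1% of all genes in human and 15.3% in mouse. With any replication UMI it was 2 and 2, against 7.98% and 8.49%. At 3 or more, EZH2, EED, SUZ12 and DNMT1 were higher in the positive progenitors of both: by 1.47, 1.05, 0.64 and 1.89 on the log2 scale in human and by 1.08, 1.04, 0.79 and 1.55 in mouse. The fifth was JARID2 in human, lower at -1.13 ± 0.27 (adjusted p = 0.0143, edgeR). In mouse it was DNMT3B, higher by 2.01 ± 0.43 (adjusted p = 5.75e-03, edgeR). The human value for DNMT3B was 0.72 ± 0.32 (adjusted p = 0.186, edgeR).

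The same division was visible inside the NEUROG2-positive class. Cells with a TOP2A or MKI67 UMI had 121 and 219 CPM of DNMT1 in human and 72.1 and 144 CPM in mouse, against 54.1 and 98.6 CPM and 29.2 and 73.0 CPM in cells without. EZH2 stood at 116 and 177 CPM and 281 and 325 CPM, against 50.7 and 84.4 CPM and 173 and 181 CPM. JARID2 was lower in the cells with such UMIs in all 4 parts, at 15.6 and 15.4 CPM in human parts and 30.2 and 44.8 CPM in mouse, against 31.9 and 40.9 CPM and 35.4 and 77.5 CPM. For DNMT3B the mouse cells with such UMIs had 11.2 and 9.74 CPM, against 5.61 and 4.75 CPM without, while human replicate 1 had 14.1 against 12.3 CPM and human replicate 2 had 13.4 against 16.9 CPM.

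Between the species, TET1 was higher in human and EZH2 and EED were lower. In TOP2A/MKI67-positive progenitors 3 of 9 passed (TET1, EZH2, JARID2), against 29.5% of all genes tested there. In TOP2A/MKI67-negative progenitors 3 of 9 passed (TET1, EZH2, EED), against 26.0%, and the same 3 passed in NEUROG2-positive cells, against 28.4%. In neurons 1 of 9 passed (DNMT3B), against 16.3%. The shares of members are thus close to those of all genes.

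TET1 was higher in human, at 2.25 ± 0.38, 2.26 ± 0.55 and 2.69 ± 0.47 on the log2 scale in the first 3 classes (adjusted p = 6.09e-03, 0.0184 and 8.58e-03, edgeR). In neurons the value was 2.54 ± 0.71 with an adjusted p of 0.0555 (edgeR). EZH2 was lower in human, at -1.02 ± 0.31, -1.32 ± 0.35 and -1.34 ± 0.32 in the same 3 classes (adjusted p = 0.0443, 0.0248 and 0.0228), and its value in neurons, -1.34 ± 0.40, missed the threshold (adjusted p = 0.0653, edgeR). The replicate number as a block pairs the parts of the mixed library, but it also pairs the parts numbered 2, which share only a number. With this block TET1 and EZH2 passed in neurons at 2.68 and -1.36 (adjusted p = 0.0146 and 0.0466), and EED passed in TOP2A/MKI67-positive progenitors at -1.09 (adjusted p = 0.0417, edgeR). EED was lower, at -1.48 ± 0.38 in TOP2A/MKI67-negative progenitors and -1.16 ± 0.35 in NEUROG2-positive cells (adjusted p = 0.0230 and 0.0483, edgeR). JARID2 was lower, at -1.31 ± 0.37 in TOP2A/MKI67-positive progenitors (adjusted p = 0.0357, edgeR). With 1 library part left out at a time, TET1 kept its call in the first 3 classes except in TOP2A/MKI67-negative progenitors without mouse replicate 1, where it was 1.67 (adjusted p = 0.120, edgeR). EZH2, EED and JARID2 each lost their calls in at least 1 such fit, with values of -0.94 to -1.71 and adjusted p up to 0.191 (edgeR).

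DNMT3B was 2.87 ± 0.69 higher on the log2 scale in human neurons than in mouse neurons (adjusted p = 0.0372, edgeR). It missed the threshold in the other 3 classes, where the values were -0.35 ± 0.41, -0.87 ± 0.49 and 0.67 ± 0.42. Without human replicate 1, human replicate 2 or mouse replicate 2 the neuron difference was 2.73, 3.03 or 2.16 and no longer passed (adjusted p = 0.115, 0.110 and 0.130, edgeR). SUZ12, DNMT1 and DNMT3A overlapped between the species in all 4 classes. With 2 parts a species an exact permutation test cannot go below p = 0.333, and differences between species cannot be told apart from differences in gene annotation or cell line, since human and mouse transcripts were counted on different gene models.

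**Figure D4:**
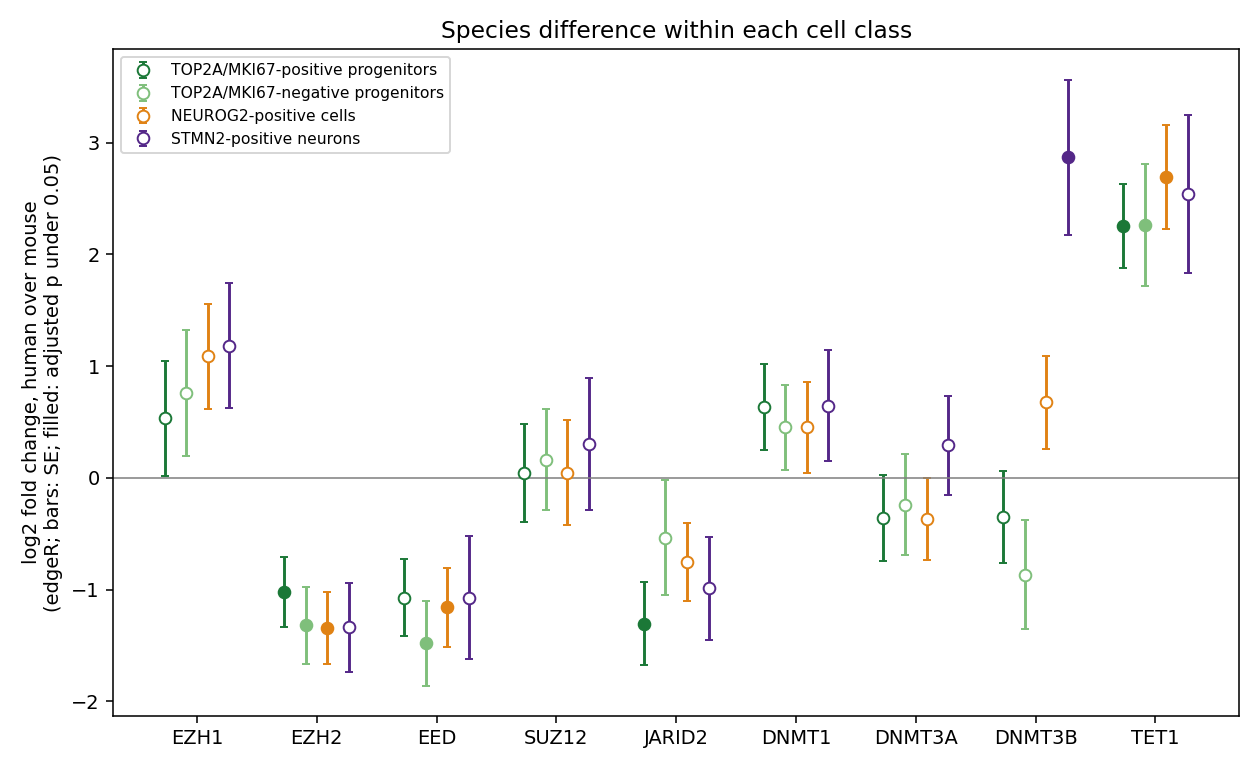
Log2 fold change of human over mouse (vertical axis) for the 9 genes tested (horizontal axis) in the 4 cell classes, with SE bars and filled points where the adjusted p passed 0.05. TET1 lies above 0 in all 4 classes, EZH2 and EED lie below it, and DNMT3B is at 2.87 in neurons and at -0.87 in TOP2A/MKI67-negative progenitors.

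Other genes of these pathways were read from lists, the neuron contrast being taken in human and then mouse. Of 5 measured partners of DNA methylation, 0 rose and 3 fell in human and 0 rose and 4 fell in mouse. Of all genes 20.8% rose and 24.7% fell in human and 28.6% rose and 29.0% fell in mouse, and these shares are the background of every list that follows. With lists this short, the counts do not set a list apart, except for the S phase and G2/M lists. CDCA7 and HELLS, which form a nucleosome remodeller needed for DNA methylation, fell in both species, at -3.69 ± 0.26 and -2.86 ± 0.24 on the log2 scale in human and -4.87 ± 0.19 and -4.39 ± 0.25 in mouse (adjusted p of 2.05e-06 or less in each, edgeR). CDCA7 stood at 4.44 and 1.70 CPM in human neurons and 9.90 and 7.04 CPM in mouse neurons, against 39.7 and 27.4 CPM and 169 and 224 CPM in TOP2A/MKI67-negative progenitors.

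Of 7 genes of DNA demethylation, 4 rose and 0 fell in human, and 5 rose and 1 fell in mouse. CXXC5, a CpG-binding zinc finger protein, rose by 1.23 ± 0.14 in human and 2.04 ± 0.16 in mouse. The median log2 fold change of the list was 0.54 in human and 1.13 in mouse, beside -0.05 and 0.00 over all genes tested, of which 20.8% rose in human and 28.6% in mouse. Of 7 readers of methylated DNA, 1 rose and 1 fell in human, and 4 rose and 0 fell in mouse, and ZBTB4, which binds methylated CpG, rose by 1.17 ± 0.41 and 2.41 ± 0.57. The mouse ZBTB4 value rests on 4 and 4 UMIs in TOP2A/MKI67-negative progenitors and 5 and 39 UMIs in neurons.

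Of 7 measured PRC2 partners, 3 rose and 2 fell in human and 2 rose and 3 fell in mouse, where 45.5% and 57.6% of all genes were called. RBBP7, a histone-binding subunit that PRC2 shares with other complexes, fell by 0.54 on the log2 scale in human and by 1.87 in mouse, and PHF1, a Polycomb-like subunit, rose by 0.48 and 2.55. The mouse PHF1 value rests on 5 and 14 UMIs in TOP2A/MKI67-negative progenitors. Of 2 demethylases that remove the mark PRC2 sets, 1 rose and 0 fell in human, and 1 rose and 1 fell in mouse. KDM6B, the one called higher in both, rose by 1.73 ± 0.17 in human and 1.23 ± 0.16 in mouse. It stood at 67.1 and 100.5 CPM in human neurons and 94.3 and 126 CPM in mouse neurons, against 14.8 and 33.5 CPM and 40.6 and 41.6 CPM in TOP2A/MKI67-negative progenitors, without overlap in either species.

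Of 21 genes of PRC1, the other Polycomb complex, 3 rose and 4 fell in human and 6 rose and 5 fell in mouse. PCGF5, a subunit of that complex, changed by -2.30 and -3.17 on the log2 scale. Of 13 trithorax genes, whose products set active marks, 3 rose and 2 fell in each species, with WDR5, a shared subunit of the MLL complexes, at -1.27 and -1.40. Of 10 histone H3 lysine 9 enzymes, 2 rose and 2 fell in human and 4 rose and 2 fell in mouse. The methyltransferase SUV39H1 was at -3.74 in human and -1.665 in mouse, and the demethylase KDM4B at 0.62 and 1.68. The human SUV39H1 value rests on 1 UMI in the neurons of each replicate. All 21 S phase genes fell in both species, with median log2 fold changes of -3.47 in human and -2.76 in mouse. Of 16 G2/M genes 13 fell in human and 16 in mouse.

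Likeness was measured by Pearson correlation of log2(CPM + 10) over the 16 class-by-part values, centred within each part, among 7550 genes of at least 10 CPM. The points share libraries and cell classes, so these values are descriptions and carry no p. DNMT1 was most like MYBL2, TK1 and GINS1 (r = 0.980, 0.980 and 0.978), genes of proliferation and DNA synthesis. EZH2 was most like H2AFV, ASF1B and SMC4 (0.987, 0.987 and 0.983), and EED like WDR5, LIG1 and THOP1 (0.995, 0.994 and 0.994). SUZ12 had DNMT1 among its nearest 3 (0.975), with UBR7 and CCDC77.

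JARID2 was most like CCDC174, MXI1 and RIOK3 (0.971, 0.968 and 0.966), and its r with EED was -0.913. DNMT3A was nearest to HDAC6, CRIP2 and PPP1R2 (0.924, 0.911 and 0.910), and DNMT3B to WDR55, AHSA1 and BCKDK (0.957, 0.953 and 0.941). TET1 had the least close neighbours, MCMBP, HCFC1 and SAV1 (0.902, 0.882 and 0.859). EZH1 was under the level needed and UHRF1 was not in every table.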

How the data were processed

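The deposited tables hold UMI counts per gene and cell. Per the submitters' processing notes the authors used Cell Ranger 3.1.0 with hg38 and mm10. The gene annotation was not given in the sources used here, and replicates listed different numbers of gene entries. Cells with under 1000 UMIs, under 500 genes or over 10% mitochondrial UMIs were dropped. Scrublet in scanpy 1.11.5 (expected rate 5%) removed doublets, and 60 barcodes found in both species tables of the mixed library were left out. Symbols were upper-cased and UMIs of shared symbols added. Gate genes were read after thinning to 7000 UMIs (seed 1), which left 1927 and 1461 human cells and 1744 and 2521 mouse cells. Counts were then summed per class and library part, giving 16 sums of all UMIs. CPM divides by the sum's total.

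edgeR 4.0.16 in R 4.3.3 (TMM, filterByExpr, quasi-likelihood test, Benjamini-Hochberg, threshold 0.05) was fitted to all 16 sums with library part as a block for class contrasts, since the classes of a part come from 1 library. Species contrasts were fitted per class on the 4 parts. DESeq2 1.42.0 was an alternative. The tests were tried on simulated counts. Every one of the 10 genes is reported. From each pathway list the named genes are the 2 with the largest change among those called the same way in neurons of both species, and the 3 most correlated genes are named for each member. Not every gene that this rule picks is reported here. The genes, lists and rules were chosen with earlier results of these data known.

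Parts numbered 1 share the mixed library, and parts numbered 2 share only a number. Deviations of parts 1 and 2 correlated between species at r = 0.220 to 0.372 over 7550 genes. Loci are from RefSeq (GRCh38.p14) and GENCODE (GRCm38).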

Additional observations from a re-analysis of the deposited data

Results flagged for a closer look

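For DNMT3B, the change from TOP2A/MKI67-negative progenitors to STMN2-positive neurons differed between human and mouse. The test of the difference itself gave 3.98 ± 0.42 on the log2 scale (adjusted p = 1.30e-04, edgeR), with 0.79 in human and -3.19 in mouse. It passed in 13 of 15 alternatives, where it ranged from 2.25 to 4.49. It did not pass with either way of counting replication UMIs beside TOP2A and MKI67.

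For DNMT3B, the change from TOP2A/MKI67-negative progenitors to NEUROG2-positive cells differed as well, by 1.62 ± 0.33 (adjusted p = 0.0382, edgeR), with 0.62 in human and -0.99 in mouse. It passed in 7 of 15 alternatives, where it ranged from -0.12 to 1.88. G2/M genes summed to 403 and 345 CPM in human TOP2A/MKI67-negative progenitors and 953 and 1533 CPM in mouse ones. S phase genes summed to 1215 and 1466 CPM in human NEUROG2-positive cells and 2051 and 2150 CPM in mouse ones. In neurons they summed to 289 and 202 CPM in human parts and 556 and 382 CPM in mouse, and in TOP2A/MKI67-negative progenitors to 1790 and 1402 CPM in human parts and 2183 and 2662 CPM in mouse. Their part in the results was not tested.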

How the results depend on the processing

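Normalisation with DESeq2-type size factors, DESeq2, no filter on low counts, keeping doublets and leaving out mitochondrial and ribosomal genes reversed 0 results and, of 28 called results, cost 1 call (size factors). Both ways of counting replication UMIs beside TOP2A and MKI67, of which the 3-UMI one was added after seeing the data, changed most. They leave fewer negative progenitors. With any replication UMI the members called in neurons were 1 human, 1 mouse and 0 by difference, and with 3 or more 3, 1 and 0, while calls over all genes numbered 2938, 1094 and 120, and 3802, 3186 and 548. In NEUROG2-positive cells both gave 2 human, 2 mouse and 0 by difference. In positive progenitors they gave 2 in human and 2 in mouse, and 5 and 5. Between species in negative progenitors they gave 1 and 1, against 413 of 4351 and 1160 of 8104 of all genes. With any replication UMI, EZH2 in human neurons turned to 0.079, SUZ12 in mouse neurons to 0.032 and DNMT1 in neurons to 0.69 in human and 0.37 in mouse. DNMT1 in human neurons was 0.15 with 3 or more. In NEUROG2-positive cells DNMT1 turned to 1.79 and 1.25 in human and 1.70 and 1.19 in mouse under any and under 3 or more, and DNMT3B in mouse to 1.14 and 1.04. With 3 or more, the DNMT3B difference there turned to -0.12, DNMT3B in mouse positive progenitors to 2.01 and UHRF1 in mouse NEUROG2-positive cells to 1.56. Gating on all UMIs without thinning turned DNMT1 to 0.95, DNMT3B to 0.011 and UHRF1 to 0.92 in mouse NEUROG2-positive cells. It gave 4 calls in mouse positive progenitors, 2 in mouse NEUROG2-positive cells, 0 for the difference there and 1 between species in negative progenitors. Over all genes it called 1567, 520 and 51 of 11820 and 1273 of 9747. With thinning these were 43, 887 and 99 of 11780 and 2663 of 10236. The cause of these changes was not tested. Without cells holding off-target markers, human positive progenitors had 2 calls and the NEUROG2 difference 0, where 416 and 88 of 11481 genes were called. DNMT3B in human neurons was then 0.54 (adjusted p = 0.117, edgeR). Fitted alone, mouse NEUROG2-positive cells had 0 calls, where 490 of 11722 genes were called.

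Without the library part as a replicate block, calls numbered 0 in human positive progenitors, 0 in mouse NEUROG2-positive cells, 0 for the difference there, and 2 in human and 4 in mouse neurons, and calls over all genes in neurons went to 1740 in human and 2788 in mouse, against 5358 and 6780 with it. In human positive progenitors, mouse NEUROG2-positive cells and the difference there, 79, 2 and 0 of all 11780 genes were then called. Of the 18 called results with such a fit, 10 then missed the threshold. With the replicate number as a block across species, 3 members passed in neurons, since TET1 and EZH2 then passed too. Of all 9779 genes 2216 passed there. Between species in neurons, size factors and DESeq2 gave 2 and no filter gave 3. Over all genes these called 1599 of 9779, 1876 of 13644 and 2635 of 13644. Leaving out 1 library part at a time, which leaves 1 sample in that species, assumed to vary like the others, gave 3 to 8 calls in human neurons, 4 to 6 in mouse neurons and 1 to 1 for the difference. In NEUROG2-positive cells it gave 0 to 0 human, 0 to 1 mouse and 0 to 1 by difference, and 0 to 1 human, 0 to 0 mouse and 0 to 0 by difference in positive progenitors. Between species it gave 1 to 3 in positive progenitors, 0 to 3 in negative progenitors, 1 to 2 in NEUROG2-positive cells and 0 to 1 in neurons. Without human replicate 1, human neurons had 3 calls. Depth limits the lowest neuron values, with 7 UMIs of DNMT3B, 7 of TET1 and 12 of EZH1 in mouse replicate 1 and 11 of EED in human replicate 1.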
